A study of Mus musculus with 20 samples.

Results

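The enzymes described here are 9 proteins of the tricarboxylic acid (TCA) cycle, listed by gene: Cs, Idh3a, Idh3b, Idh3g, Ogdh, Sucla2, Sdha, Fh1 and Mdh2. They were found by gene symbol in both count tables and are 9 of the 25238 genes that the tables share. All 9 passed the filter on low counts in every fit.

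The samples are 20 livers of male C57BL/6J mice that received an AAV8 vector, a virus that carries genes into liver cells, by vein at 8 weeks of age. A diet labelled HF/HS followed to 25 weeks in every group. In 5 livers the vector carried a hairpin RNA against Pklr (shPKLR), and their 5 controls had a hairpin against firefly luciferase (shLUC). In 5 other livers it carried the Pklr coding sequence (PKLR), and their 5 controls had GFP. The vectors used the thyroxine binding globulin promoter, which is active in hepatocytes, so the vector acts in 1 cell type of a tissue that was sequenced whole. In whole tissue, fewer cells of a type and less RNA per cell cannot be told apart. The samples of a group are listed as separate liver samples, and p-values measure the spread between them.

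The TCA cycle is the ring of reactions in the mitochondrial matrix that oxidizes acetyl-CoA and hands the electrons to the respiratory chain. Citrate synthase opens it by joining acetyl-CoA to oxaloacetate, and the cycle then passes through isocitrate, 2-oxoglutarate, succinyl-CoA, succinate, fumarate and malate back to oxaloacetate. In liver the cycle also feeds other pathways: its citrate leaves for the cytosol, where it supplies fatty acid and sterol synthesis, and its oxaloacetate and malate supply gluconeogenesis. Pklr encodes the liver pyruvate kinase, whose product pyruvate is a source of the acetyl-CoA that citrate synthase uses.

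The library of shPKLR replicate 4 held 167891680 counts, and the other 19 held between 29933820 and 45413803. Levels are in CPM, a gene's count as a share of its library's total, with TMM scaling within each experiment. Pklr, the target of the vectors, had a mean of 52.95 CPM (SD 22.5) in the 5 shPKLR livers against 465 CPM (SD 112) in their controls. In the 5 PKLR livers its mean was 772 CPM (SD 220.0), against 122 CPM (SD 35.3) in the GFP controls. Both differences had an exact two-sided permutation p of 0.00794, the smallest that 5 against 5 can give. The 7 hepatocyte markers summed to between 62570 and 119000 CPM in each liver, and each of them was detected in every group.

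The start of Cs, the member that differed between the vectors, is shown with those of Sdha, which had the next widest spread of group means, and Mdh2, whose 4 group means lay closest together and which makes the oxaloacetate that citrate synthase uses. The sequences are from RefSeq on GRCm38.p6, run from 250 bases before to 50 bases after the annotated start and read in the direction of the gene. Cs lies at chr10:128337477-128337776 on the plus strand, Sdha at chr13:74350191-74350490 on the minus strand and Mdh2 at chr5:135778399-135778698 on the plus strand. Capitals mark the CCAAT box on either strand.
Cs: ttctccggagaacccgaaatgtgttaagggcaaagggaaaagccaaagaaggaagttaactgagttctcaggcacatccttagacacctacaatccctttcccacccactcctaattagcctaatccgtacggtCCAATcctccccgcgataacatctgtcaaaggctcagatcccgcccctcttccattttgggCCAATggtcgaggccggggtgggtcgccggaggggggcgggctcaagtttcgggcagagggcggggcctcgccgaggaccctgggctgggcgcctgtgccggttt
Sdha: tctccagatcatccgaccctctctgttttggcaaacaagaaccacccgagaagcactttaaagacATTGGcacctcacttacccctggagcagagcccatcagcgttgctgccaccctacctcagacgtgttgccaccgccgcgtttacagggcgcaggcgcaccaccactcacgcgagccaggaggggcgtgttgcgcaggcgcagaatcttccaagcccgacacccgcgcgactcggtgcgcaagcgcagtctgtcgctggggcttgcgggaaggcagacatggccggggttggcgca
Mdh2: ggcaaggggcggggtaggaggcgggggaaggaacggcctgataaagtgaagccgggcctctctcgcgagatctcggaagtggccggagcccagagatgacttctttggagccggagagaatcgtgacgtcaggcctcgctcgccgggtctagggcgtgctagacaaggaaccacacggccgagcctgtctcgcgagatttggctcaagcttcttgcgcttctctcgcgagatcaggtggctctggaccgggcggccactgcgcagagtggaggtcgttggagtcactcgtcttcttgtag
Cs holds CCAAT on its own strand starting at bases -116 and -55 from the annotated start. Sdha holds it on the other strand, written ATTGG, at base -185, and Mdh2 has no match. The CCAAT letters are common: 37.4% of 32851 RefSeq promoters of this length hold them, as do 5 of the 8 members with an entry. A member counts if any of its entries matches, while the percentages are of single promoters, and Ogdh has several entries. Of the other motifs searched on both strands, the ETS motif CCGGAAG was in Idh3b and Idh3g and in 8.86% of all promoters. The E-box CACGTG was in some of the Ogdh entries and in 7.15% of all promoters. The NRF1 motif (0.971% of promoters), the ERR half-site (0.423%) and the sterol response element (0.0913%) matched no member. GC content was 58.7% for Cs and 62.7% for both Sdha and Mdh2, against a median of 52.7% over all these promoters. A match says only that the letters are in the window.

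Cs encodes citrate synthase (ENSMUSG00000005683, GRCm38 chromosome 10, 128337734 to 128362479, plus strand). In the shLUC livers Cs was at 197, 203, 157, 226 and 196 CPM, and in the shPKLR livers at 146, 157, 115, 109.7 and 111 CPM. With scaling within each experiment, the highest shPKLR liver, at 156.6 CPM, was just below the lowest shLUC liver, at 156.7 CPM. The groups thus did not overlap on that scale, by a narrow margin. On a scale common to both experiments they did overlap, with shPKLR replicate 2 at 162.6 CPM and shLUC replicate 3 at 161.8 CPM. In the GFP livers Cs was at 106, 146, 122, 125 and 132 CPM, and in the PKLR livers at 179, 176, 189.6, 181 and 152 CPM. Every PKLR liver lay above every GFP liver on both scales. With scaling within each experiment, no other member separated the groups. On that scale 1 of 9 members did so downward with shPKLR, where 2.03% of all 15611 genes did. With PKLR 1 of 9 did so upward, where 3.10% of 15842 did.

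**Figure D1:**
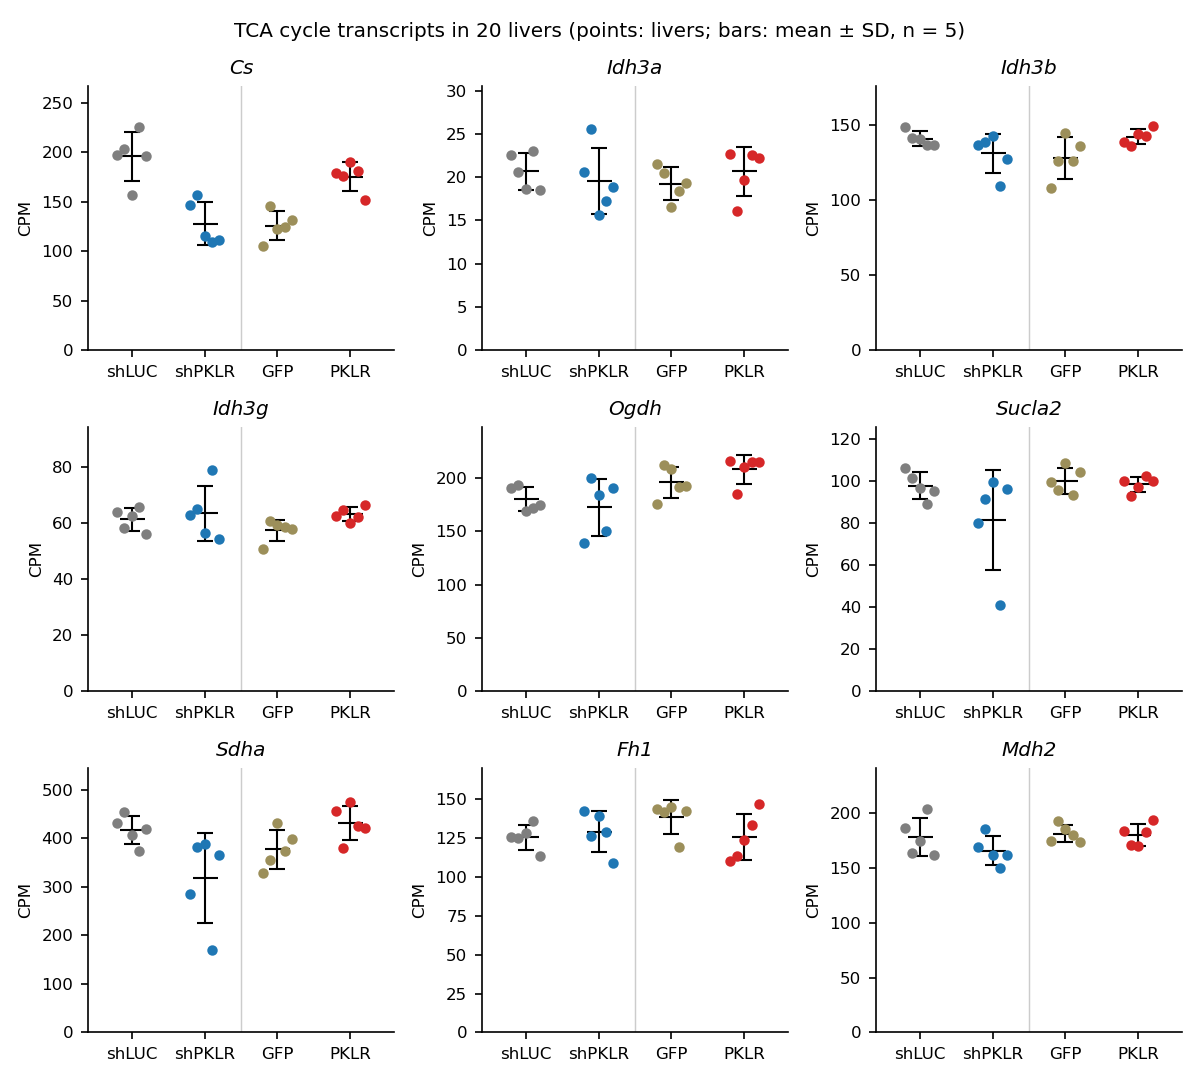
Level of each of the 9 members in CPM (vertical axes, linear, from 0) in every liver of the 4 vector groups (horizontal axis); points are livers and bars are the group mean and SD of 5 livers. Levels are scaled within each experiment. On this scale Cs is the member whose vector and control livers separate in both experiments. Its means were 196 and 128 CPM in shLUC and shPKLR and 126 and 175 CPM in GFP and PKLR.

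With Pklr overexpression, Cs rose from 126 ± 14.5 CPM (SD, n = 5) to 175 ± 14.3 CPM (SD, n = 5), or 1.39 times the control. Its log2 fold change was 0.48 (SE 0.095, 95% confidence interval 0.27 to 0.69), with an edgeR adjusted p of 0.0281. It was the 1 member called of 9, in a comparison that called 2.03% of all genes in either direction and 1.19% upward. The call was near the threshold. The adjusted p became 0.0548 without GFP replicate 3, 0.0738 without GFP replicate 4, and 0.0531, 0.0551, 0.0716 and 0.0587 without PKLR replicates 1, 2, 3 and 4, while the log2 fold change stayed between 0.42 and 0.54.

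With Pklr knockdown, Cs had 128 ± 21.98 CPM (SD, n = 5) against 196 ± 24.9 CPM (SD, n = 5), which is 65.3% of the control. The log2 fold change was -0.61 (SE 0.14, 95% confidence interval -0.92 to -0.31), with an unadjusted p of 0.000899 and an edgeR adjusted p of 0.17. edgeR called 0 of the 9 members here and 0.00641% of all genes, that is 1 of 15611; at an unadjusted p under 0.05 there were 2339 genes and 1 member, Cs. DESeq2 called Cs with an adjusted p of 0.0077, as did 1 edgeR fit of all 20 libraries with 0.0315, and limma-voom did not, with 0.15. Over all genes DESeq2 called 260 in the knockdown, that edgeR fit 114 and limma-voom 8. With a library left out in turn, edgeR gave adjusted p-values of 0.113 to 0.395. Without shPKLR replicate 4, the deepest library, the log2 fold change of Cs was -0.56.

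The overexpression effect less the knockdown effect was tested in 1 model of all 20 livers. For Cs this difference was 1.07 (SE 0.17, 95% confidence interval 0.71 to 1.43) on the log2 scale, with an edgeR adjusted p of 0.0016. It was 1 of 9 members called, against 5.50% of 16407 genes in either direction and 2.75% in the positive one. The call held with each library left out in turn, where the difference ran from 1.02 to 1.16 and the adjusted p from 0.00071 to 0.0043.

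The 2 control groups also differed in Cs. GFP livers had 60.6% of the level of shLUC livers, a log2 difference of -0.72 (SE 0.12) with an edgeR adjusted p of 0.0022, and no GFP liver reached the lowest shLUC liver. Cs was the 1 member of 9 called here, where 5.81% of all genes were called and 2.33% were lower in GFP; its groups did not overlap, which 4.02% of genes also showed in that direction. The control vector and the experiment cannot be told apart in this comparison, and it shares its livers with the others. On a scale common to all 20 livers the order of the mean Cs level was shLUC with 202 CPM, PKLR with 169 CPM, shPKLR with 133 CPM and GFP with 122 CPM. Pklr ran in a different order on that scale: PKLR had 742 CPM, shLUC 479 CPM, GFP 118 CPM and shPKLR 54.9 CPM. For Cs, the ranges of each pair of neighbours in that order overlapped.

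Cs has a paralog, Csl, at group means of 0.42 to 0.47 CPM. A small nucleolar RNA gene, Gm23182, lies within it at about 0.01 CPM. Neither level approached that of Cs.

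The next reactions in these data belong to the mitochondrial NAD-dependent isocitrate dehydrogenase, which turns isocitrate into 2-oxoglutarate and is built from the catalytic subunit of Idh3a and the subunits of Idh3b and Idh3g. None of the 3 genes passed the test in either experiment. Idh3a (ENSMUSG00000032279, chromosome 9, 54586334 to 54604661, plus strand) ran from 15.7 to 25.6 CPM over all livers, with log2 fold changes of -0.08 (95% confidence interval -0.38 to 0.22) with shPKLR and 0.10 (-0.13 to 0.33) with PKLR. Idh3b (ENSMUSG00000027406, chromosome 2, 130279309 to 130284547, minus strand) had means of 141 ± 4.99 and 131 ± 13.2 CPM (SD, n = 5 each) in shLUC and shPKLR and of 128 ± 13.8 and 142 ± 5.00 CPM (SD, n = 5 each) in GFP and PKLR. Its log2 fold changes were -0.10 (-0.33 to 0.12) and 0.15 (-0.03 to 0.33). The means of Idh3b thus lay on the same sides of their controls as those of Cs, with groups that overlapped.

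Idh3g (ENSMUSG00000002010, chromosome X, 73778963 to 73786897, minus strand) had means of 61.4 ± 4.00 and 63.5 ± 9.69 CPM (SD, n = 5 each) in shLUC and shPKLR. In GFP and PKLR it had 57.5 ± 3.76 and 63.2 ± 2.46 CPM (SD, n = 5 each). The log2 fold changes were 0.05 (-0.21 to 0.31) and 0.14 (-0.01 to 0.28). Its highest liver, shPKLR replicate 4 at 79.0 CPM, set the sign in the knockdown, which was -0.04 without that library.

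Ogdh encodes the first component of the 2-oxoglutarate dehydrogenase complex, which makes succinyl-CoA (ENSMUSG00000020456, chromosome 11, 6291633 to 6356642, plus strand). Its means were 180.0 ± 11.2 and 172 ± 26.6 CPM (SD, n = 5 each) in shLUC and shPKLR and 196 ± 14.6 and 208 ± 13.3 CPM (SD, n = 5 each) in GFP and PKLR. The log2 fold changes of -0.06 (-0.33 to 0.21) and 0.09 (-0.09 to 0.26) did not pass the test. The knockdown value was 0.01 without shPKLR replicate 1.

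Sucla2 encodes the ADP-forming beta subunit of succinyl-CoA synthetase, which releases succinate and yields ATP (ENSMUSG00000022110, chromosome 14, 73525319 to 73596142, plus strand). Its levels were 106, 101, 96.7, 89.3 and 95.4 CPM in the shLUC livers and 80.2, 91.4, 99.5, 41.0 and 96.0 CPM in the shPKLR livers. The liver at 41.0 CPM, replicate 4, was far below the other 4, which overlapped the controls. The log2 fold change was -0.26 (-0.69 to 0.17) with that liver and -0.09 without it. In GFP and PKLR the means were 100.2 ± 6.18 and 98.5 ± 3.65 CPM (SD, n = 5 each), a log2 fold change of -0.03 (-0.17 to 0.12).

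Sdha encodes the catalytic subunit of succinate dehydrogenase, which makes fumarate and is also complex II of the respiratory chain (ENSMUSG00000021577, chromosome 13, 74322254 to 74350280, minus strand). It was at 431, 454, 407, 375 and 418 CPM in the shLUC livers and at 284, 381, 388, 169 and 365 CPM in the shPKLR livers. In the GFP livers it was at 328, 354, 432, 373 and 398 CPM, and in the PKLR livers at 455, 380.4, 473, 425 and 420.2 CPM. The groups overlapped in both experiments, and shPKLR replicate 4 was again the lowest liver. The log2 fold change was -0.39 (SE 0.20, 95% confidence interval -0.82 to 0.03, edgeR adjusted p 0.35) with shPKLR and 0.19 (SE 0.097, -0.02 to 0.41, edgeR adjusted p 0.31) with PKLR. The difference between the effects was 0.56 (SE 0.23, edgeR adjusted p 0.13) with an unadjusted p of 0.0211. Without shPKLR replicate 4 the knockdown value was -0.23 and the difference 0.41, with an edgeR adjusted p of 0.52 and 0.12.

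Fh1 encodes fumarate hydratase, which makes malate (ENSMUSG00000026526, chromosome 1, 175600374 to 175625635, minus strand). Its log2 fold changes were 0.04 (-0.20 to 0.28) with shPKLR and -0.14 (-0.35 to 0.06) with PKLR, so it was the 1 member whose difference between the effects was below 0, at -0.20 (-0.49 to 0.08). None of these passed the test. The gene shares 5255 bases with Kmo on the other strand, which had means of 228 and 234 CPM in the knockdown and overexpression tables. The strand setting of the counting is not given in the sources used here, so reads of the shared stretch may be placed in either gene. Idh3b likewise shares 5 bases with Nop56.

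Mdh2 encodes the mitochondrial malate dehydrogenase, which closes the cycle by making oxaloacetate (ENSMUSG00000019179, chromosome 5, 135778480 to 135790398, plus strand). It ran from 162 to 204 CPM in shLUC livers, from 151 to 186 CPM in shPKLR livers, from 174 to 194 CPM in GFP livers and from 171 to 194 CPM in PKLR livers. Its log2 fold changes were -0.10 (-0.34 to 0.14) and -0.01 (-0.16 to 0.15). These ranges overlapped throughout, and Mdh2 had the smallest spread of group means of the 9 members, with a highest mean 1.07 times its lowest on the common scale. The same ratio was 1.65 for Cs, 1.30 for Sdha and between 1.11 and 1.19 for the other 6.

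**Figure D2:**
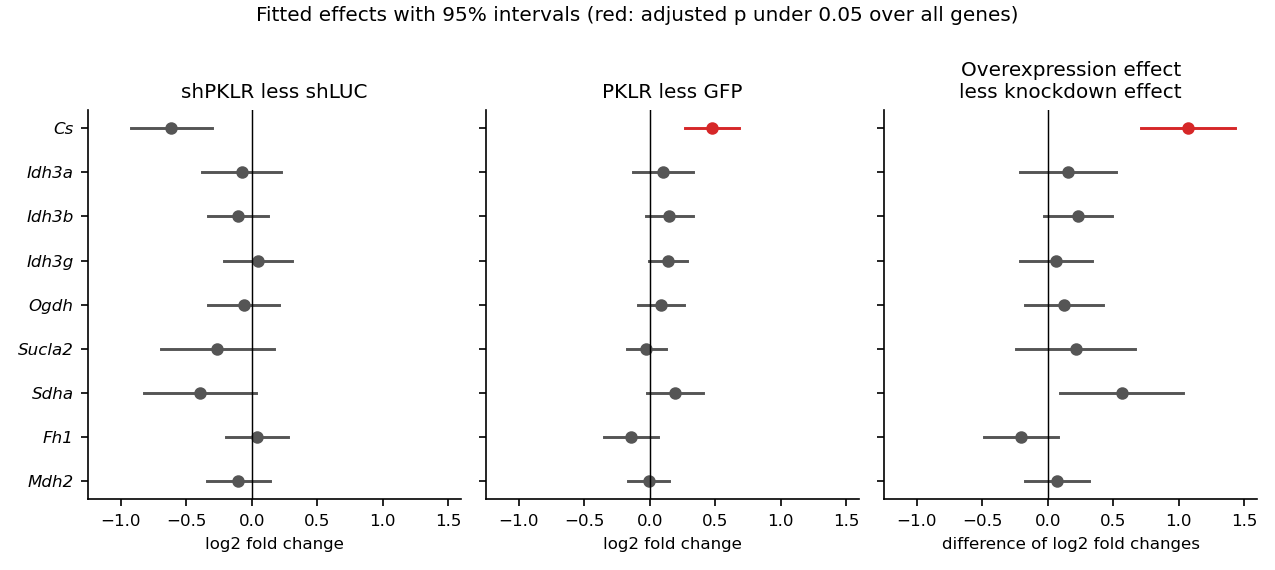
Log2 fold change of each member (horizontal axis) with its 95% confidence interval for the knockdown, the overexpression and the difference between them, from the edgeR fits. Cs lies at -0.61, 0.48 and 1.07, and the intervals of the other 8 members in the knockdown and the overexpression include 0.

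As a group, 7 of the 9 members had a negative log2 fold change in the knockdown, with a median of -0.10 against 0.02 over all genes, and none passed the test with edgeR. Without shPKLR replicate 4 there were 8 of 9 with a median of -0.05, against 0.01 over all genes. In the overexpression 6 of 9 were positive, with a median of 0.10 against 0.01, and 1 rose. The difference between the effects was positive for 8 of 9, with a median of 0.15 against -0.06 over all genes. These counts and medians describe the members beside all genes tested and are no test of the group.

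The ratio of Cs to Mdh2 within a library does not depend on how libraries are scaled. It was 1.10 ± 0.136 (SD, n = 5) in shLUC and 0.767 ± 0.080 (SD, n = 5) in shPKLR, and ran from 0.896 to 1.24 and from 0.687 to 0.863 in those groups. In GFP it was 0.692 ± 0.065 (SD, n = 5) and in PKLR 0.976 ± 0.122 (SD, n = 5), with ranges of 0.604 to 0.757 and 0.781 to 1.11. The groups did not overlap in either experiment. The ratio was chosen with the separation of Cs and the narrow spread of Mdh2 known, and it restates the result for Cs on another scale. Cs made up 13.8% of the summed CPM of the 9 members in shLUC, 10.6% in shPKLR, 9.51% in GFP and 12.2% in PKLR.

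Compared between genes per kilobase of annotated exon, in CPM per kilobase, Sdha was the highest member in shLUC livers at 104 and Idh3a the lowest at 4.20. Between them came Mdh2 at 51.6, Idh3b at 42.4, Fh1 at 38.2, Cs at 34.9, Ogdh at 34.0, Sucla2 at 25.3 and Idh3g at 23.4. With GFP, Cs was at 21.2 CPM per kilobase. The catalytic subunit Idh3a was thus the lowest of the 3 Idh3 genes on this scale, which rests on the summed length of all annotated exons (5072 bases for Idh3a) and not on the transcripts present.

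**Figure D3:**
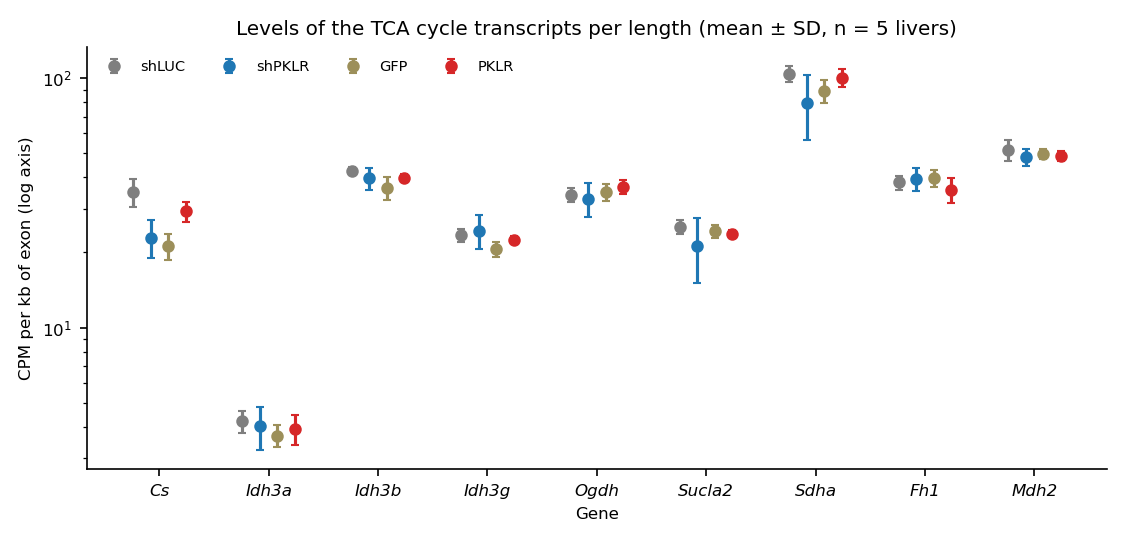
Level of each member per kilobase of exon, in CPM per kilobase on a log axis, for the 4 groups; points are group means and bars are SDs of 5 livers. Sdha is at the top and Idh3a at the bottom in every group, and the groups are spread most widely for Cs.

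Within groups the correlations between members were of both signs. Over the 36 pairs of members and the 20 livers, after the mean of each group was taken out, the median Pearson correlation of log2 CPM was 0.24, and 0.20 without shPKLR replicate 4. Sdha and Sucla2 had a correlation of 0.94, and 0.77 without that library. Sdha and Ogdh had 0.70 and 0.80. Idh3g went the other way, at -0.74 with Sucla2 and -0.66 with Sdha, and at -0.32 and -0.15 without that library. Cs had 0.25 with Sdha and -0.02 without that library. The livers share library preparation and scaling, and these values are descriptions. How they compare with pairs of other genes was not tested.

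The genes with the pattern most like that of Cs were sought among 7496 genes of at least 10 CPM, by the Pearson correlation of log2 CPM over the 20 livers centred on each experiment. The 5 nearest were Rdh11, a retinol dehydrogenase, at 0.95, the water channel Aqp8 at 0.93, Acss2, which makes acetyl-CoA from acetate, at 0.93, Acacb, an acetyl-CoA carboxylase, at 0.92, and the fatty acid synthase Fasn at 0.91. Because the vector groups differ in these genes, part of each value is the difference between groups. With group means taken out the values were 0.81 for Rdh11, 0.76 for Aqp8, 0.73 for Acss2, 0.69 for Acacb and 0.71 for Fasn. Their log2 fold changes were -1.23 in the knockdown and 1.05 in the overexpression for Rdh11, -1.32 and 1.18 for Aqp8, -1.61 and 1.35 for Acss2, -1.63 and 1.08 for Acacb, and -1.78 and 1.22 for Fasn. Choosing these genes by likeness to Cs over the same livers favours such differences, so they are given with no test. No other member was among the 5. The nearest genes of the other members were Ugt1a6b for Sdha at 0.98, Etfdh for Sucla2 at 0.97, Snrpa for Idh3g at 0.96, Mccc2 for Idh3b at 0.93, Bcas3 for Ogdh at 0.89, Akr1e1 for Fh1 at 0.75, Hprt for Idh3a at 0.74 and Chchd3 for Mdh2 at 0.72. Without shPKLR replicate 4 these were 0.94, 0.84, 0.93, 0.90, 0.90, 0.76, 0.74 and 0.65 in the same order, and Etfdh was at 0.69 over the overexpression livers alone.

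**Figure D4:**
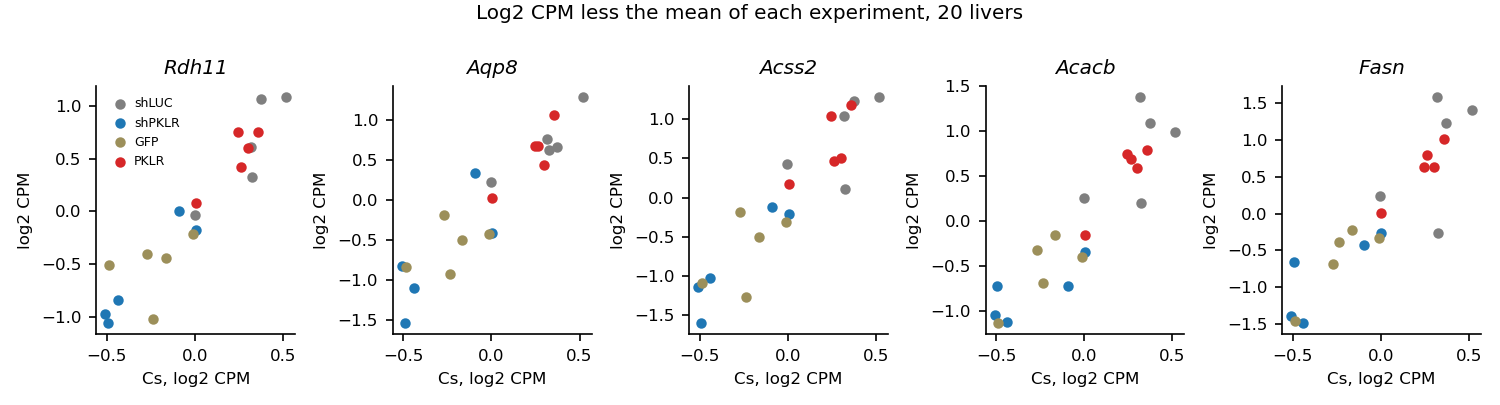
Log2 CPM of Cs (horizontal axis) against each of its 5 nearest genes (vertical axes), both centred on the mean of each experiment, for 20 livers coloured by vector. Points run from the shPKLR and GFP livers at the lower left to the shLUC and PKLR livers at the upper right, with correlations of 0.91 to 0.95.

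Other genes of the pathway were taken from lists. Of the 9 further subunits and enzymes of the cycle that were tested, among them the subunits Dlst, Suclg1 and Sdhb, all 9 were negative in the knockdown (median -0.22) and 7 were positive in the overexpression (median 0.04), with none past the test in either. Idh2, the NADP-dependent mitochondrial isocitrate dehydrogenase, had -0.04 in the knockdown and -0.52 in the overexpression, with an edgeR adjusted p of 0.88 and 0.079. Without shPKLR replicate 4 there were 8 of the 9 below 0 in the knockdown. The 4 assembly factors of succinate dehydrogenase had medians of 0.06 in the knockdown, or -0.07 without shPKLR replicate 4, and -0.11 in the overexpression, with none past the test. Those with the smallest p were Sdhaf3 in the knockdown at -0.48 and Sdhaf4 in the overexpression at -0.14, with an edgeR adjusted p of 0.27 and 0.52. For the difference it was Sdhaf4 at -0.47 (edgeR adjusted p 0.19).

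Upstream of Cs, the pyruvate dehydrogenase complex and its regulators had 10 of 10 tested genes below 0 in the knockdown, with a median of -0.28 and none past the test; Pdk1, a kinase that inhibits the complex, had -0.78 (edgeR adjusted p 0.17). Without shPKLR replicate 4 there were 7 of 10, with a median of -0.12. In the overexpression 8 of 11 were positive and 2 rose, where 1.19% of all genes did: Pdk1 by 0.93 (edgeR adjusted p 0.0271) and Pdhb, a subunit of its first component, by 0.31 (edgeR adjusted p 0.0409). Pdk1 lost the call in 6 of 10 fits with a library left out (the highest adjusted p was 0.0672) and Pdhb in 10 of 10. The difference between the effects was called for 2 of 11, where 5.50% of all genes were: Pdk1 at 1.68 and Dlat, the acetyltransferase of the complex, at 1.11.

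Of 7 tested enzymes that bring carbon into the cycle or take it out, 1 rose in the overexpression, against 1.19% of all genes, with a list median of 0.13, and 4 of 7 were below 0 in the knockdown, with none past the test. That enzyme was Acly, which splits citrate in the cytosol into acetyl-CoA and oxaloacetate. It rose by 1.59 (edgeR adjusted p 0.018), a call kept in 10 of 10 fits with a library left out, and had -1.44 (edgeR adjusted p 0.21) in the knockdown. The cytosolic malic enzyme Me1 rose by 1.09 (edgeR adjusted p 0.0338), lost the call in 6 of those 10 fits, and had -0.98 in the knockdown. The phosphoenolpyruvate carboxykinases, which take oxaloacetate towards glucose, had the opposite sign: the difference between the effects was -1.61 for Pck1 and -1.30 for Pck2, both called by edgeR (adjusted p 0.0177 and 0.0118). Against 5.50% of all genes, the difference was also called for Acly at 3.01, Me1 at 2.05, the cytosolic isocitrate dehydrogenase Idh1 at 0.59 (not called in 2 of 20 fits with a library left out) and the mitochondrial citrate carrier Slc25a1 at 0.59 (not called in 13 of 20). The 5 cytosolic counterparts of cycle enzymes and the 7 carriers all had negative log2 fold changes in the knockdown, with medians of -0.34 and -0.20, and none passed the test. The carrier with the smallest p there was Mpc1, a subunit of the mitochondrial pyruvate carrier, at -0.46 (edgeR adjusted p 0.22), and in the overexpression Slc25a1 at 0.32 (edgeR adjusted p 0.13).

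General mitochondrial proteins such as the channel Vdac1 and the chaperone Hspd1 were 9 of 15 below 0 in the knockdown (median -0.07; without shPKLR replicate 4, 8 of 15 and -0.04) and 9 of 15 above 0 in the overexpression (median 0.04), with none past the test in the knockdown, the overexpression or their difference. Those with the smallest p were Vdac1 in the knockdown at -0.22 and Timm23, an import channel, in the overexpression at 0.14. Of 10 regulators of mitochondrial genes, only Esrrg, an estrogen-related receptor, had a called difference between the effects, at 2.52, against 5.50% of all genes. It had -1.11 in the knockdown (edgeR adjusted p 0.17) and 1.43 in the overexpression (edgeR adjusted p 0.078). Its level was low, with means of 3.01 CPM in shLUC, 1.41 in shPKLR, 0.86 in GFP and 2.31 in PKLR.

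**Figure D5:**
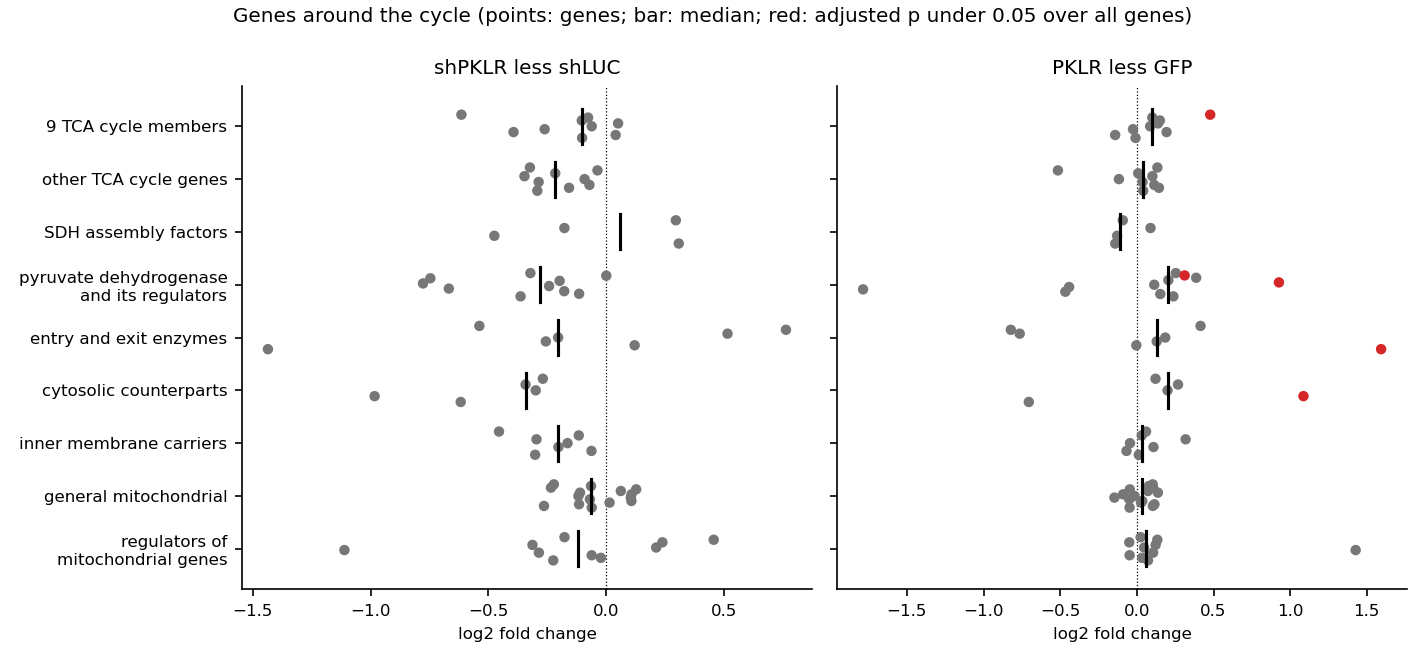
Log2 fold change of every tested gene in the members and in the 8 pathway lists (points) with the list median (bar), in the knockdown and in the overexpression; red points passed the test. The members have medians of -0.10 and 0.10, and the general mitochondrial proteins of -0.07 and 0.04.

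Markers of other cells were summed in the same livers. The 9 macrophage markers were all positive in the knockdown (median 0.54), with sums of 96.4 to 178 CPM in shLUC and 91.0 to 226 CPM in shPKLR livers. In the overexpression 6 of 9 were negative (median -0.50), with sums of 83.2 to 353 CPM in GFP and 75.1 to 212 CPM in PKLR livers. The 7 stellate cell and matrix markers had sums of 192 to 403 CPM in GFP and 126 to 239.6 CPM in PKLR, with 6 of 7 negative. The 6 cell cycle genes summed to between 8.21 and 106 CPM in GFP and between 4.65 and 11.4 CPM in PKLR, with 6 of 6 negative. Of these lists 1 of 9 macrophage markers and 1 of 6 cell cycle genes fell by the edgeR test in the overexpression. Of all 15842 genes 134 fell there. None of these markers was called by edgeR in the knockdown, where 1 of 15611 genes was. At an unadjusted edgeR p under 0.05 there were 2 macrophage markers, 1 cell cycle gene and no stellate marker. For the difference between the effects edgeR called 3 of 9 macrophage, 2 of 7 stellate and 4 of 6 cell cycle genes below 0 (without shPKLR replicate 4, 1, 1 and 3). With all libraries, 2.75% of all genes were called below 0. Between the controls edgeR called 2 of 9 macrophage, 2 of 7 stellate, 1 of 5 cholangiocyte and 6 of 6 cell cycle genes higher in GFP. Of all 16407 genes it called 570 higher there. In the knockdown the stellate list had 4 of 7 positive, with sums of 141 to 221 CPM in shLUC and 114 to 199 CPM in shPKLR, and the cell cycle list had 4 of 5 tested genes positive, with sums of 3.23 to 7.66 and 3.29 to 8.31 CPM. No marker of these 3 lists was at 0 in a whole group. Lymphocyte markers were 6 of 6 positive in the knockdown (median 0.30; without shPKLR replicate 4, 5 of 6 and 0.12) and 6 of 6 negative in the overexpression (median -0.47), with sums of 5.86 to 8.96 CPM in shLUC, 4.70 to 13.8 in shPKLR, 6.20 to 20.4 in GFP and 5.14 to 11.3 in PKLR. Neutrophil markers were 3 of 3 positive in the knockdown (median 0.78) and 3 of 3 negative in the overexpression (median -0.28), with sums of at most 8.02 CPM and 1 of the 4 listed markers with no count in the shLUC and shPKLR livers. Erythroid genes were 4 of 5 negative in the knockdown (median -0.80) and 5 of 5 negative in the overexpression (median -0.35), with sums of 343 to 2541 CPM in shLUC, 418 to 1068 in shPKLR, 495 to 1507 in GFP and 458 to 966 in PKLR. None of these 3 lists had a called gene in either experiment. Endothelial markers were 5 of 6 negative in the knockdown (median -0.08) and 4 of 6 positive in the overexpression (median 0.10). Between the controls 5 of 6 were lower in GFP (median -0.40). Cholangiocyte markers were 4 of 5 positive in the knockdown (median 0.26) and 4 of 5 negative in the overexpression (median -0.06). Neither list had a called gene in either experiment. Hepatocyte markers had medians of 0.00 and 0.01 in the knockdown and the overexpression. The part of the other cells in the result for Cs was not tested.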

How the data were processed

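Liver RNA of 20 mice was sequenced from libraries of a stranded total RNA kit, per the labels' protocols. Each experiment has 1 table of raw read counts by gene, deposited by the authors without normalization. The submitters' processing notes name HISAT2, DESeq2, GRCm38 and mm10. For the counting program, annotation and strand setting, the sources used here give nothing. Groups and replicate numbers came from the labels, and each table column was matched to a sample by name.

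Symbols, coordinates and exon lengths came from the GENCODE annotation of GRCm38. Two-group tests and a model of all 20 livers (genes in both tables) used edgeR 4.0.16 in R 4.3.3 (quasi-likelihood, robust) after filterByExpr and TMM scaling. Adjusted p-values are Benjamini-Hochberg values over all genes tested, called under 0.05, by edgeR where no tool is given. The SE is the size of the log2 fold change divided by the square root of F. Correlations used log2 CPM with a prior count of 2. Steps were tested on simulated counts.

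Of each pathway list the text names the called genes, up to 3, or otherwise the gene with the smallest p, and other examples without values; a gene that this rule also names is not reported here. The members, lists and tests were chosen with earlier results of these data known. Alternatives were RLE factors, other count filters, DESeq2 1.42.0, limma-voom 3.58.1, a replicate block, 1 fit of all libraries, removal of mitochondrial genome and ribosomal RNA genes, thinning of shPKLR replicate 4 and removal of each library in turn.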

Additional observations from a re-analysis of the deposited data

Results flagged for a closer look

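The overexpression effect on Cs less the knockdown effect was 1.07 on the log2 scale, called by edgeR with an adjusted p of 0.0016. The vectors moved Pklr in opposite directions, to 0.114 times its control with shPKLR and 6.34 times with PKLR. The log2 fold changes of Cs had the same signs as these, at -0.61 (not called by edgeR) and 0.48. A gene that follows Pklr gives such a difference.

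In 3 groups of 5 livers the lowest liver stood apart, with a gap to the next liver of more than 0.71 of the range of its group. These were Idh3g in GFP replicate 1 at 51.0 CPM, Ogdh in PKLR replicate 2 at 184 CPM and Fh1 in GFP replicate 4 at 119.6 CPM. Chance flags about 1 in 20 such groups, and 36 groups were tested.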

How the results depend on the processing

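Cs kept its call in the difference between the effects and between the controls under every alternative run, and its direction in all comparisons. In the overexpression 1 fit of all 20 libraries gave it 0.46 with an adjusted p of 0.0502, so 0 members were called there, and 0 to 1 with a library left out. In the knockdown, members called went from 0 to 1 with DESeq2 and with 1 fit of all libraries. Members below 0 in the knockdown, counted without shPKLR replicate 4 (8) or with it thinned (7), were alternatives chosen after seeing the data.

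Counts over all genes depended more on the setting. Knockdown calls went from 1 to 7 with RLE factors, 17 with no filter, 260 with DESeq2, 8 with limma-voom, 7 with mitochondrial genome and ribosomal RNA genes left out, 114 in 1 fit of all libraries, 7 with shPKLR replicate 4 thinned, and 1 to 12 with a library left out. Overexpression calls went from 322 to 1107 with DESeq2 and 128 to 469 with a library left out; in 1 fit of all libraries 120 were higher and 218 lower, against 188 and 134. Calls of the difference went from 902 to 1626 with DESeq2 and 485 to 1384 with a library left out, with 484 higher and 343 lower in limma-voom against 451 each. Calls between the controls went from 953 to between 415 and 1315 with a library left out. The cause was not tested.

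Small effects changed sign: Mdh2 in the overexpression was 0.00195 with no filter and -0.0344 to 0.0152 with a library left out, Sucla2 there -0.0493 to 0.00606, Idh3g in the knockdown -0.0417 to 0.105, Ogdh in the knockdown -0.122 to 0.00598 and Ogdh between the controls -0.000926 to 0.0664.

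Replicate numbers showed no general pairing of the livers, though so few correlations cannot exclude it. Deviations of same-numbered livers had correlations of -0.20 to 0.35 in the knockdown and -0.11 to 0.26 in the overexpression. Replicate 4 in the knockdown and replicate 1 in the overexpression correlated best with their own number, and the other numbers did not. With the replicate number as a block, calls went to 3 in the knockdown, 544 in the overexpression and 962 for the difference (550 higher and 412 lower), and the calls of Cs did not change. The block was not run between the controls, since numbers do not cross the experiments. Every member had at least 15.7 CPM in every liver, and depth limits Idh3a, the lowest, most.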

Other observations

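Between the 2 control groups, which differ in vector and in experiment, some genes around the cycle were called, beside 5.81% of all genes tested. They were 1 of 9 further cycle enzymes, 0 of 4 assembly factors, 2 of 11 genes of pyruvate dehydrogenase and its regulators, 3 of 7 entry and exit enzymes, 2 of 5 cytosolic counterparts, 2 of 7 carriers, 1 of 15 general mitochondrial proteins and 1 of 10 regulators. Sdhaf2, the assembly factor with the smallest p, had -0.11. Relative to shLUC livers, edgeR called GFP livers lower in Acly (log2 difference -1.83), Me1 (-1.55), Pdk1 (-1.19), Dlat (-0.65) and Slc25a1 (-0.43). Also called lower were Idh1 (-0.37), the oxoglutarate carrier Slc25a11 (-0.30) and the import channel Timm23 (-0.26). Esrrg was called lower too (-1.89), at low means of 0.84 CPM in GFP and 3.10 CPM in shLUC. GFP livers were called higher in Pck1 (1.33), Pck2 (0.94) and Idh2 (0.46). The adjusted p-values ran from 0.0017 for Pdk1 to 0.0434 for Idh1. The calls of Dlat, Slc25a1, Idh1, Idh2, Slc25a11 and Timm23 were lost in 6, 7, 11, 7, 12 and 10 of 20 fits with a library left out. The controls are the reference of both experiments, so these differences and the effects of the vectors share livers. The 6 cell cycle genes were all higher in GFP than in shLUC livers, with a median log2 difference of 2.60, and all 6 were called. Their part in the other differences was not tested.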
